A study of Gallus gallus with 16 samples.

Results

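The libraries described here follow the normal course of development in the neck and forelimb part of the chicken spinal cord: 4 vehicle embryos at day 7 of incubation are set against 4 vehicle embryos at day 5. They were chosen by their labels, as the control libraries of both days, and are 8 of the 16 libraries of the series. The other 8 came from nicotine embryos, 4 at each day, and serve below to see which changes between the days were measured again in other embryos. All embryos were wild type domestic chickens from specific pathogen-free eggs, which came as 2 cohorts of 24. The cohort of each library is not given, so cohort did not enter the edgeR tests below. Whether cohorts coincide with day or treatment is not known. Day 7 and day 5 vehicle eggs received sodium bitartrate monohydrate in Chicken Ringer's solution before incubation, and nicotine eggs received nicotine hydrogen bitartrate at a dose of 30 ng/ml. So the control embryos were injected too, and no uninjected embryos were analysed here. The labels call the 4 embryos of a group biological replicates. The edgeR p-values below weigh a difference against the spread between libraries of the same group, estimated over all 16 libraries. The model behind the p-values of the authors' deposited tables is not known. The tissue was cut from the region between the mid neck and the rear edge of the forelimb, as a piece that held the spinal cord. Such a piece can carry muscle, cartilage, connective tissue, vessels, blood and skin beside neural tissue.

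In the embryonic spinal cord, dividing progenitors line the central canal, and the neurons they produce move outward, extend axons and form synapses. Progenitors are set apart along the dorsoventral axis by transcription factors, and each domain yields its own classes of neurons. Neuron production gives way to the production of glia, while the sensory ganglia, the vertebral cartilage and the axial muscles form around the cord. The comparison of days asks which of these programmes differ in RNA level between the days when nothing but vehicle was given.

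Total counts ran from 22920149 to 28820505 in the 8 vehicle libraries. They averaged 25419500 ± 2465820 at day 7 and 24726800 ± 2247010 at day 5 (SD, n = 4 each), a difference within their spread (exact two-sided permutation p = 0.629, where the smallest possible is 0.0286). In a principal component analysis of the 8 libraries, component 1 held 34.6% of the variance and placed the day 7 libraries at 42.2 to 59.5 and the day 5 libraries at -81.7 to -17.2. Component 2 held 19.4% and set apart replicate 2 of day 7, at 60.6, and replicate 2 of day 5, at 72.1, from the other 6, at -46.2 to -6.76. Those 2 libraries, with 2 of the nicotine libraries, had under 0.05 CPM (counts scaled to the library's total) of 57 loci that the other 12 libraries held at 0.5 CPM or more. None of the 57 carried a gene symbol. Of 58 named loci of the matrix, not all of which had an edgeR call, 8 lost theirs without these 2 vehicle libraries. They were CHRNB4, GRIK2 and 6 of the 13 lower loci described below. TMM factors, which rescale libraries for the test, were 1.03 to 1.05 at day 7 and 0.951 to 0.993 at day 5.

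Of 18394 loci tested with edgeR, 6844 (37.2%) differed between the days, of which 3231 (17.6% of those tested) were higher and 3613 (19.6%) lower at day 7, at an adjusted p under 0.05. Without the 2 libraries that lack the 57 loci, 2916 were higher and 3355 lower. The 8 libraries did not overlap between the days at 5861 of the 6844 called loci (85.6%) and at 933 of the 11550 others (8.08%). In bulk tissue, fewer cells of a type and less RNA per cell cannot be told apart, and this holds for each change below.

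Over all called loci, the gains were more often large than the losses. Among loci called higher at day 7, 1280 (39.6%) were at least 2-fold higher, against 324 (8.97%) at least 2-fold lower among those called lower. At least 4-fold, these counts were 267 (8.26%) and 64 (1.77%). They also differed by level. With the loci put in 4 equal bins by mean level, the lowest bin ran from 0.123 to 2.35 CPM over all 16 libraries, and 522 (11.4%) of its loci were higher and 138 (3.0%) lower at day 7. The highest bin ran from 53.5 to 18100 CPM, and 707 (15.4%) were higher and 1836 (39.9%) lower. In the bins between, 23.2% and 20.3% were higher and 9.79% and 25.9% lower. The share called lower thus grew from bin to bin, while the share called higher was lowest in the lowest bin and peaked in the next. The median log2 fold change of the loci called was 1.49 for higher and -1.33 for lower ones in the lowest bin, and 0.589 and -0.513 in the highest. How far the greater counts behind abundant loci set these shares was not tested. How far the level of the called loci sets the gap in size between gains and losses was not tested either.

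**Figure D1:**
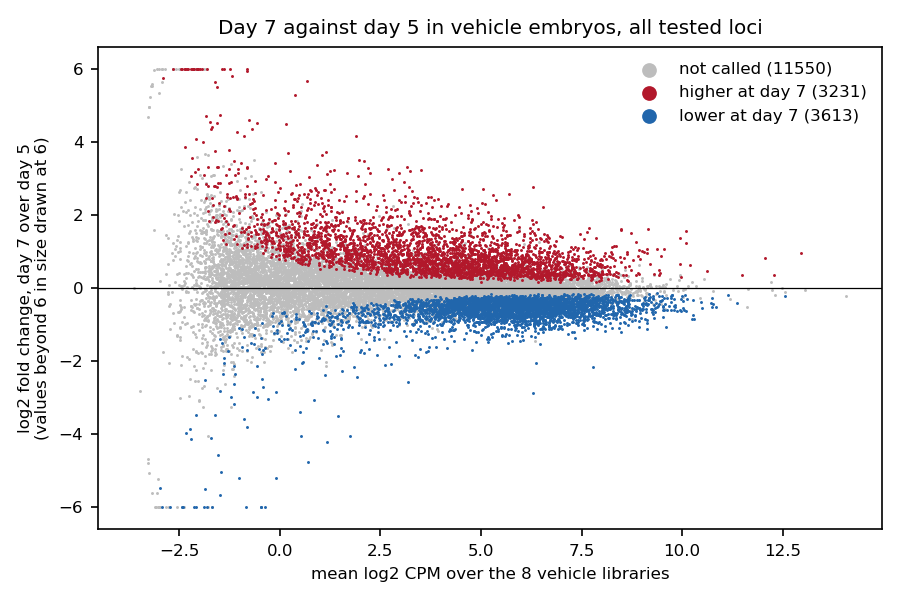
Each point is 1 of 18394 loci, with its mean log2 CPM over the 8 vehicle libraries on the x axis and its log2 fold change, day 7 over day 5, on the y axis. Of the 3231 loci higher at day 7 (red), 39.6% are at least 2-fold changed, against 8.97% of the 3613 lower ones (blue), and the 11550 others are grey. The largest changes in both directions are drawn at the edge of a fixed range.

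**Figure D2:**
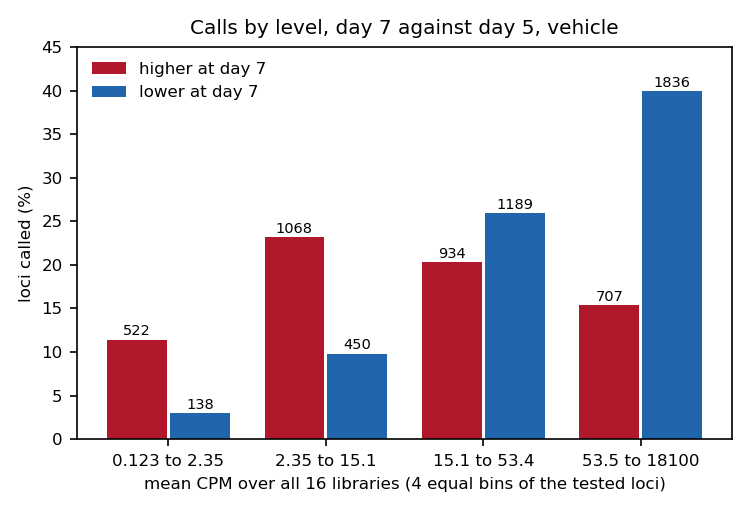
Bars give the percentage of loci called higher (red) or lower (blue) at day 7 in each of 4 equal bins of the tested loci, ordered by mean CPM, with the number of loci above each bar. The share called lower runs from 3.0% in the lowest bin to 39.9% in the highest.

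Most loci of the count matrix carry no gene symbol, so 756 named loci could be followed in single libraries. Of these, 124 (16.4%) were higher and 29 (3.84%) lower at day 7 by edgeR, against 17.6% and 19.6% of all tested loci. In the lowest bin of level, the shares were 11.4% and 3%. Loci with a gene identifier held only 0.334% of all counts, so the named loci do not stand for all loci. Each may hold only part of its gene's reads. The values of these named loci come from edgeR and are CPM, which are not divided by gene length and compare libraries, not genes. In the next paragraphs, named loci that passed, reached 2 CPM and did not overlap between the days are given. The 15 higher loci are those with the largest changes, while the 13 lower ones are all that met the conditions. The lack of overlap in these loci was thus a condition of the choice, not a result.

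Among those that rose were several genes of neuronal signalling. NR4A2, an orphan nuclear receptor known for its role in dopaminergic neurons, was at 7.02, 6.25, 6.01 and 8.19 CPM at day 7, against 0.448, 0.615, 0.505 and 0.609 CPM at day 5. The log2 fold change was 3.64 ± 0.33 (SE, edgeR adjusted p = 1.02e-05). GRIN1, the obligatory subunit of NMDA-type glutamate receptors, was at 6.42, 8.74, 6.71 and 10.4 CPM at day 7, against 0.717, 1.41, 0.275 and 0.975 CPM at day 5. Its log2 fold change was 3.23 ± 0.44 (SE, edgeR adjusted p = 7.74e-05). DLGAP1, a scaffold protein of the postsynaptic density, was at 4.13, 3.24, 3.19 and 3.64 CPM at day 7, against 0.538, 0.868, 0.688 and 0.690 CPM at day 5. It rose by 2.34 ± 0.31 on the log2 scale (SE, edgeR adjusted p = 7.56e-05), and the libraries of each day lay close together. NEFH, the heavy neurofilament subunit of large axons, averaged 4.20 ± 0.71 CPM at day 7 and 0.838 ± 0.281 CPM at day 5 (SD, n = 4 each; edgeR adjusted p = 3.1e-05).

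Others in this group serve calcium-dependent release, endocytosis and adhesion. OTOF, or otoferlin, a calcium sensor of vesicle release in hair cells, had 99, 72, 89 and 41 counts at day 7, against 0, 2, 2 and 0 counts at day 5 (edgeR adjusted p = 0.00135). With so few counts at day 5, its fitted change of 5.94 on the log2 scale depends on the handling of low counts. SGIP1, an adaptor of clathrin-mediated endocytosis, had 49, 82, 118 and 61 counts at day 7, against 0, 6, 0 and 6 counts at day 5 (edgeR adjusted p = 0.000295). ADCY8, an adenylyl cyclase stimulated by calcium, averaged 3.61 ± 1.00 CPM at day 7 and 0.492 ± 0.168 CPM at day 5 (SD, n = 4 each; edgeR adjusted p = 0.000138). DSCAML1, a neuronal cell adhesion molecule, averaged 4.12 ± 0.85 CPM at day 7 and 0.642 ± 0.211 CPM at day 5 (SD, n = 4 each; edgeR adjusted p = 4.68e-05). The other members were ADAMTS2, a procollagen-processing protease, MGAT4C, LHX2, FBXO41, STK32A, HKDC1 and SNPH, with log2 fold changes from 2.23 in SNPH to 2.90 in ADAMTS2. HKDC1 and SNPH lost their edgeR call without replicate 1 of day 5 (adjusted p = 0.0519 and 0.062), SNPH also without replicate 4 of day 7, and the other 13 kept it whichever vehicle library was left out.

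The 13 lower loci were all that qualified, so they include small changes, which the cut at 15 leaves out of the higher loci. PTPRQ, a receptor phosphatase known from hair cells and kidney, was at 0.401, 0.558, 0.839 and 0.585 CPM at day 7, against 6.59, 4.70, 29.9 and 3.82 CPM at day 5. Replicate 3 of day 5 stood far above the other day 5 libraries. The log2 fold change was -4.22 ± 0.64 (SE, edgeR adjusted p = 0.000165), and -3.07 without that library. ESYT3, an extended synaptotagmin, was at 0.521, 0.409, 0.738 and 0.877 CPM at day 7, against 11.2, 5.03, 2.52 and 2.92 CPM at day 5 (edgeR adjusted p = 0.000863). Its highest value was in replicate 1 of day 5. CD247, the zeta chain of the T cell receptor, averaged 0.710 ± 0.345 CPM at day 7 and 2.99 ± 0.94 CPM at day 5 (SD, n = 4 each; edgeR adjusted p = 0.0031). DTX3L, a ubiquitin ligase, was at 2.69, 4.17, 3.62 and 4.22 CPM at day 7, against 6.90, 6.62, 8.07 and 6.74 CPM at day 5 (log2 fold change -0.95 ± 0.17 SE, edgeR adjusted p = 0.000619). AMPD1, the muscle AMP deaminase, and ART4, a surface ADP-ribosyltransferase, fell by 1.54 and 1.01 on the log2 scale by edgeR. These 6 kept their edgeR call whichever library was left out. The other 7, which were TXLNB, LCP2, AMDHD1, DGKB, ENO4, ICE2 and PTPRC, fell by 0.50 to 0.99 on the log2 scale and lost it in 2 to 7 of the 8 cases with 1 library left out. Their highest adjusted p then ran from 0.0617 for LCP2, without replicate 3 of day 7, to 0.177 for PTPRC, without replicate 3 of day 5. All of these but AMDHD1 also lost it without both libraries that lack the 57 loci, with edgeR adjusted p from 0.0585 for DGKB to 0.137 for TXLNB.

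**Figure D3:**
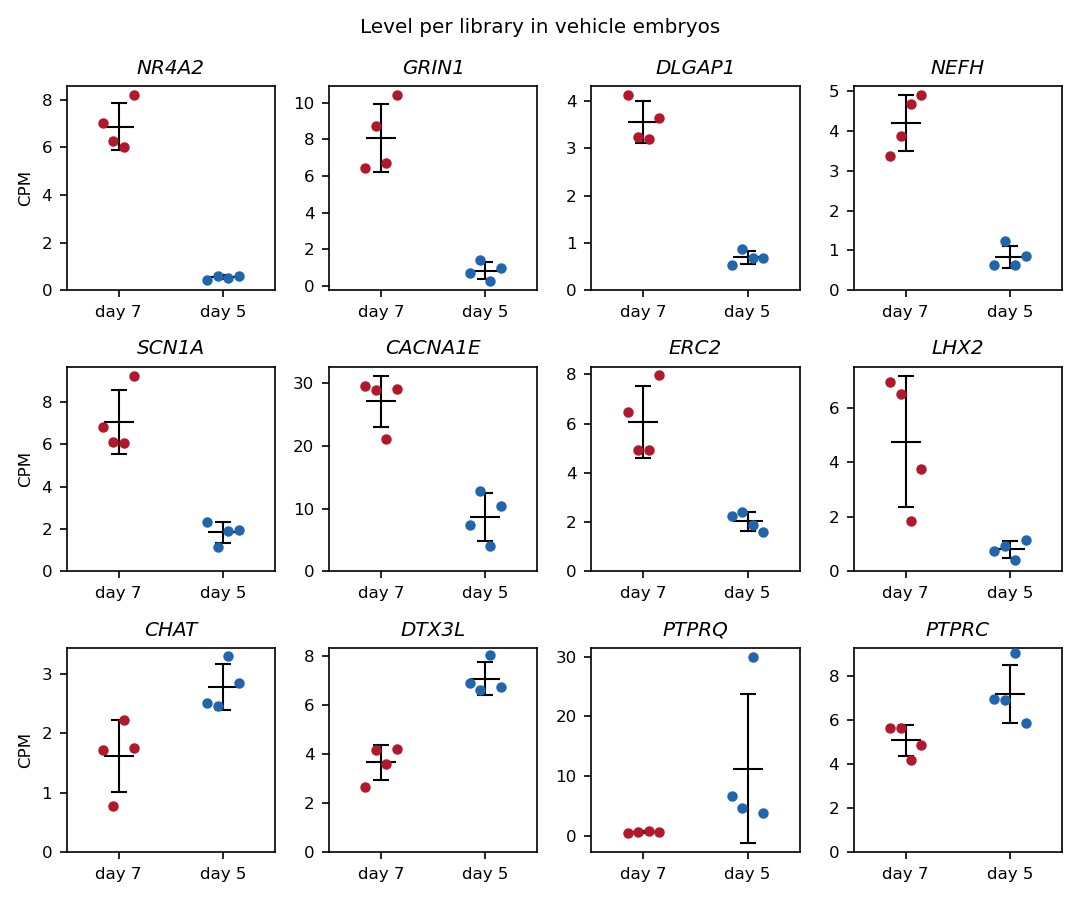
Points give the CPM of each vehicle library at day 7 (red) and day 5 (blue), with the mean and SD over 4 libraries as lines. For CHAT, DTX3L, PTPRC and PTPRQ the day 5 libraries are higher, with a single PTPRQ library at 29.9 CPM.

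For most named genes the values come from the authors' deposited table of day 7 against day 5 in vehicle embryos, which gives log2 fold changes and p-values but no levels and no standard errors. Of 9131 genes with a symbol and an adjusted p there, 4353 (47.7%) differed, and 1848 (20.2%) were higher and 2505 (27.4%) lower at day 7 at an adjusted p under 0.05, and the median log2 fold change was -0.054. These shares are the background for each list below, and every change is a log2 fold change of day 7 over day 5. The lists were written with earlier results of these data known. Their distance from the background and their rank by median may partly follow from that choice. Listed genes without an adjusted p there were left out, so the sizes below can be well under the lists as written. Of 37 erythroid genes listed, 10 were left, of 18 motor neuron genes 8, and of 39 spinal interneuron factors 23. The table rests on the same embryos as the matrix: of the 756 named loci in both, 745 had the same sign, and 151 of the 153 edgeR calls were also called in the table.

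Genes of dividing cells fell almost as a whole. Of 39 genes of DNA replication, 34 were lower and 0 were higher in the authors' deposited table, with a median of -0.704. Among them were RFC3, a subunit of the clamp loader, with -1.40 (adjusted p = 3.61e-14), and SLBP, which binds the stem-loop of histone mRNA, with -1.23 (adjusted p = 8.44e-16), in the authors' deposited table. ORC2, of the origin recognition complex, fell by 1.18 and the thymidylate synthase TYMS by 1.08 in the authors' deposited table (with adjusted p = 3.31e-12 and 5.29e-08). The 5 members that did not pass included DNMT1, the maintenance DNA methyltransferase, at 0.11 (adjusted p = 0.36, from the authors' deposited table).

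Of 47 genes of mitosis and the kinetochore, 44 were lower and 0 higher at day 7 in the authors' deposited table, with a median of -0.871. The mitotic kinases NEK2 and AURKA fell by 1.46 and 1.33 in the authors' deposited table (with adjusted p = 2.2e-20 and 2.92e-14). CDK1, the kinase that drives entry into mitosis, fell by 1.06, and its partner cyclin CCNB2 by 1.19, in the authors' deposited table (with adjusted p = 2.63e-16 and 4.39e-16). TOP2A, the topoisomerase that untangles sister chromatids, fell by only 0.30 in the authors' deposited table (with adjusted p = 0.00104). Of 27 genes of G1 control and cell cycle exit, 15 were lower and 3 were higher in the authors' deposited table, and none of the 15 was lower by 2-fold or more. CCND1, the cyclin of G1 progression, fell by 0.64, while CDKN1B, the cell cycle inhibitor p27, rose by 0.26 in the authors' deposited table (with adjusted p = 0.000987 and 0.0362).

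The protein synthesis machinery fell too, by less in the median than the genes of DNA replication and of mitosis. Of 43 cytosolic ribosomal proteins, 35 were lower and 0 were higher in the authors' deposited table, and their changes lay in the narrow range from -0.737 to -0.061, with a median of -0.5. RPL37 had -0.74 and RPS25 -0.72 in the authors' deposited table (with adjusted p = 1.13e-07 and 7.27e-10). Of 36 genes of ribosome biogenesis and the nucleolus, 32 were lower and 0 were higher in the authors' deposited table, with a median of -0.625. POLR1D, a subunit shared by RNA polymerases I and III, fell by 1.20, and the snoRNP protein NOP58 by 1.09, in the authors' deposited table (with adjusted p = 3.99e-08 and 6.54e-14). Near-identical ribosomal protein copies could not be separated, as the sources used here state no counting or strand setting. No levels are given for these genes, so they could not be set against loci of like level. In the highest bin of level, 39.9% of loci were called lower by edgeR.

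The list with the lowest median, -0.891, holds genes linked to the early embryonic state. It is named for LIN28 and oncofetal RNA-binding genes but also holds others. Of its 10 genes, 8 were lower and 1 was higher at day 7 in the authors' deposited table. LIN28A and LIN28B, RNA-binding proteins that block the maturation of let-7 microRNAs, fell by 4.05 and 2.03 in the authors' deposited table (with adjusted p = 2.4e-16 and 1.7e-28). PRTG, or protogenin, an immunoglobulin-family receptor of the early neural tube, fell by 2.85 in the authors' deposited table (with adjusted p = 3.68e-20). The chromatin regulator ARID3B fell by 1.05 and the zinc finger factor SALL4 by 0.92 in the authors' deposited table (with adjusted p = 7.98e-09 and 1.86e-05). IGF2BP2, an mRNA-binding protein, was the member that rose, by 0.37 in the authors' deposited table (with adjusted p = 1.05e-05). Of 9 HOX genes with an adjusted p, HOXB1, a gene of the hindbrain end of the cluster, fell by 2.62 and the other 8 did not pass in the authors' deposited table (with adjusted p of HOXB1 = 8.73e-13).

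Neural progenitor genes had no common direction. Of 15 members, 3 were higher and 4 lower at day 7 in the authors' deposited table, close to the background shares. HES5, the Notch effector that keeps progenitors undifferentiated, fell by 1.305, and PAX6, a progenitor factor of the intermediate and ventral cord, by 0.80, in the authors' deposited table (with adjusted p = 4.32e-09 and 0.0158). SOX9, a factor of gliogenic progenitors that cartilage also expresses, rose by 1.15 in the authors' deposited table (with adjusted p = 1.2e-05). Of 12 dorsoventral progenitor factors, PAX3, of dorsal progenitors and of muscle precursors, fell by 1.11, and NKX6-2, of ventral progenitors, by 0.89, in the authors' deposited table (with adjusted p = 4.34e-08 and 0.000774). The other 10 did not pass, with NKX6-1 at -0.15 and IRX3 at 0.21 in the authors' deposited table (with adjusted p = 0.471 and 0.384).

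Signalling pathways of the progenitor zone had members that rose and members that fell. In both lists below, the share that passed was near the 47.7% of all genes with a symbol. Of 18 Notch pathway genes, 6 were higher (33.3%) and 3 lower (16.7%) at day 7 in the authors' deposited table, against 20.2% and 27.4% of all genes with a symbol. The receptors NOTCH1 and NOTCH2 rose by 0.61 and 0.92, and the atypical ligand DLK1 by 1.80, in the authors' deposited table (with adjusted p = 0.00841, 8.04e-09 and 3.01e-05). The effectors HES5 and HEY2 fell, HEY2 by 0.55 in the authors' deposited table (with adjusted p = 0.0484). Of 12 Sonic hedgehog pathway genes, 4 were higher (33.3%) and 2 lower (16.7%) in the authors' deposited table. The co-receptors BOC and CDON rose by 1.19 and 0.45, and HHIP, the hedgehog-binding inhibitor that is also a pathway target, fell by 1.11, in the authors' deposited table (with adjusted p = 7.23e-20, 0.000191 and 1.4e-08). SHH itself stood at 0.10 and did not pass in the authors' deposited table (with adjusted p = 0.622).

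The retinoic acid pathway was mostly lower. Of its 9 measured genes, 5 fell and 1 rose at day 7 in the authors' deposited table. CYP26A1, which breaks retinoic acid down, fell by 1.42, and RDH10, which makes its precursor retinaldehyde, by 1.17, in the authors' deposited table (with adjusted p = 8.72e-08 and 1.53e-08). ALDH1A1, a retinaldehyde dehydrogenase, had 8, 0, 0 and 0 counts at day 7, against 17, 2, 193 and 27 counts at day 5. Replicate 3 of day 5 held most of its counts, and without that library the edgeR call was lost (adjusted p = 0.107, against 0.0132 with all libraries).

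Genes of the birth of neurons were mixed, and those of later neuronal stages rose. Of 14 proneural and newborn neuron genes, 3 were higher and 3 lower in the authors' deposited table. MYT1, a zinc finger factor of differentiating neurons, and CNTN2, the axonal adhesion molecule of early commissural and motor axons, were higher by 1.58 and 1.56 in the authors' deposited table (with adjusted p = 6.38e-06 and 2.42e-05). ST18, a relative of MYT1, fell by 0.83, and TAGLN3, a cytoskeletal protein of young neurons, by 0.52, in the authors' deposited table (with adjusted p = 0.0105 and 0.0086). Of 9 temporal transcription factors, which in mouse mark neurons by their time of birth, 4 were higher and 0 lower in the authors' deposited table. NFIB, known in mouse and chick for the switch to glia production, rose by 1.47, ZFHX4 by 1.05, ZFHX3 by 0.92 and NEUROD2 by 3.83 in the authors' deposited table (with adjusted p = 8.44e-16, 1.47e-08, 0.0019 and 0.00543). The early marker ONECUT1 was at -0.05 in the authors' deposited table (with adjusted p = 0.93).

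Neuron class genes rose on the interneuron side. Of 23 spinal interneuron transcription factors, 13 were higher and 2 lower at day 7 in the authors' deposited table, with a median of 1.04. LHX1, of several dorsal and ventral interneuron classes, rose by 1.57, EVX1, of V0 commissural interneurons, by 1.45, and POU4F1, of dorsal interneurons and sensory neurons, by 1.89, in the authors' deposited table (with adjusted p = 0.000318, 0.0124 and 1.88e-06). LHX2, a factor of dorsal commissural interneurons, could be followed in single libraries, at 6.94, 6.51, 1.85 and 3.76 CPM at day 7, against 0.762, 0.940, 0.413 and 1.14 CPM at day 5. The day 7 libraries differed more than 3-fold among themselves (edgeR adjusted p = 0.00484). SIM1, of V3 interneurons, and WT1, known in mouse from a subset of dI6 interneurons and from the mesothelium, fell by 0.95 and 1.32 in the authors' deposited table (with adjusted p = 0.00675 and 0.00292). EN1, of V1 interneurons, was at -0.45 and did not pass in the authors' deposited table (with adjusted p = 0.0615).

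Of 18 motor neuron and cholinergic genes listed, only 8 could be tested, and few of these passed. Of 8 members, ETV4, a factor of motor pools, rose by 0.40 and CHAT, the acetylcholine-synthesising enzyme, fell by 0.81 in the authors' deposited table (with adjusted p = 0.00965 and 0.0354). CHAT was at 1.72, 0.781, 2.22 and 1.75 CPM at day 7, against 2.51, 2.46, 3.30 and 2.84 CPM at day 5. Each day 7 library was below each day 5 library, but the difference did not pass by edgeR (log2 fold change -0.78 ± 0.33 SE, adjusted p = 0.0781). ISL1 and LHX3, which specify motor neurons, were at 0.27 and 0.68 and did not pass in the authors' deposited table (with adjusted p = 0.279 and 0.24).

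Genes of transmitter use rose. Of 18 genes of transmitter synthesis and transport, 11 were higher and 0 lower at day 7 in the authors' deposited table, with a median of 0.947. SLC32A1, the vesicular transporter of GABA and glycine, rose by 2.22, the GABA-synthesising enzyme GAD2 by 1.25, and the neuronal glycine transporter SLC6A5 by 1.44, in the authors' deposited table (with adjusted p = 1.28e-07, 0.0205 and 0.000614). The peptide precursors PENK and SST, of enkephalin and somatostatin, were higher by 2.32 and 1.97 in the authors' deposited table (with adjusted p = 1.26e-17 and 0.000165). SLC6A11, a GABA transporter, was at 1.64, 1.79, 2.35 and 3.55 CPM at day 7, against 0.717, 0.0723, 0.642 and 0.609 CPM at day 5. Its days did not overlap (log2 fold change 2.20 ± 0.50 SE, edgeR adjusted p = 0.00325).

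The axonal cytoskeleton rose in nearly every member. Of 13 neurofilament and cytoskeleton genes, 12 were higher and 0 lower at day 7 in the authors' deposited table, against a background of 20.2% higher. The light and medium neurofilament genes NEFL and NEFM rose by 0.59 and 0.96, less than NEFH at 2.32, in the authors' deposited table (with adjusted p = 0.00139, 2.76e-05 and 1.91e-12). GAP43, a growth cone protein, rose by 1.68 and STMN3, a microtubule-destabilising protein, by 2.26 in the authors' deposited table (with adjusted p = 2.18e-10 and 7.71e-10). ANK3, which builds the axon initial segment, was the member that did not pass, at 0.20 in the authors' deposited table (with adjusted p = 0.261).

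Synaptic genes rose on both sides of the synapse. Of 31 genes of vesicles and release, 19 were higher and 0 lower in the authors' deposited table, with a median of 1.03. UNC13A, which primes vesicles, rose by 2.35, the active zone protein BSN by 1.65, and the SNARE proteins STX1A and SNAP25 by 1.64 and 1.28, in the authors' deposited table (with adjusted p = 3.56e-15, 7.5e-09, 1.1e-12 and 7.97e-09). ERC2, another active zone protein, was at 6.46, 4.95, 4.93 and 7.98 CPM at day 7, against 2.24, 2.42, 1.88 and 1.58 CPM at day 5 (edgeR adjusted p = 0.000175). The lowest day 7 library held more than the highest of day 5.

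Of 33 genes of glutamate receptors and the postsynaptic scaffold, 21 were higher and 2 lower at day 7 in the authors' deposited table. The AMPA receptor subunit GRIA2 rose by 1.75, the kainate receptor subunit GRIK3 by 3.14 and the metabotropic receptor GRM7 by 1.77 in the authors' deposited table (with adjusted p = 8.13e-17, 6.7e-08 and 2.22e-08). GRM8, another metabotropic receptor, averaged 2.06 ± 0.28 CPM at day 7 and 0.652 ± 0.162 CPM at day 5 (SD, n = 4 each; edgeR adjusted p = 0.000308). The scaffold genes DLG1 and HOMER3 fell by 0.29 and 0.18 in the authors' deposited table (with adjusted p = 0.008 and 0.0366).

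Of 19 GABA and glycine receptor genes, 8 were higher and 1 lower in the authors' deposited table. The GABA receptor subunit GABRA3 rose by 1.73, and the glycine receptor subunit GLRA1 by 2.74, in the authors' deposited table (with adjusted p = 9.46e-11 and 2.22e-07). GLRA2, the glycine receptor subunit of young neurons, was given a change of 7.73 in the authors' deposited table (with adjusted p = 7.12e-11), which without levels cannot be read as a bound. GPHN, or gephyrin, the scaffold that anchors these receptors, fell by 0.48 in the authors' deposited table (with adjusted p = 5.04e-06). SLC12A5, the chloride exporter KCC2 that sets the sign of GABA responses, was at 4.25, 3.24, 2.69 and 2.21 CPM at day 7, against 0.358, 2.28, 0.917 and 1.14 CPM at day 5. Replicate 2 of day 5 slightly exceeded the lowest day 7 library (edgeR adjusted p = 0.0146, and 0.0468 without replicate 1 of day 7).

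Ion channels followed the same course. Of 35 voltage-gated channel genes, 26 were higher and 0 lower at day 7 in the authors' deposited table, with a median of 0.985. The potassium channel KCNA2 rose by 2.00 and the sodium channel subunits SCN2A and SCN2B by 0.98 and 2.59 in the authors' deposited table (with adjusted p = 4.44e-13, 0.00113 and 6.96e-05). SCN1A, a sodium channel of excitable cells, was at 6.82, 6.10, 6.04 and 9.23 CPM at day 7, against 2.33, 1.16, 1.93 and 1.95 CPM at day 5 (edgeR adjusted p = 7.26e-05). CACNA1E, the R-type calcium channel, was at 29.6, 28.9, 21.1 and 29.1 CPM at day 7, against 7.39, 12.9, 4.13 and 10.4 CPM at day 5 (edgeR adjusted p = 0.000187). Both genes were free of overlap between the days. HCN4, a pacemaker channel, and KCND3, an A-type potassium channel, averaged 4.03 ± 0.80 and 4.28 ± 1.04 CPM at day 7, and 1.297 ± 0.800 and 1.33 ± 0.83 CPM at day 5 (SD, n = 4 each; edgeR adjusted p = 0.0186 and 0.00149).

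Of 10 nicotinic receptor subunits, 5 were higher and 0 lower at day 7 in the authors' deposited table, and 2 higher at an adjusted p under 0.01. CHRNA4 and CHRNB2, which form the main receptor of the brain, rose by 0.56 and 0.80, CHRNB3 by 1.21 and CHRNG, the fetal muscle subunit, by 1.13, in the authors' deposited table (with adjusted p = 0.00591, 0.0232, 0.0332 and 0.00718). CHRNB4, a subunit of autonomic ganglia, was at 1.88, 3.01, 5.00 and 3.55 CPM at day 7, against 1.66, 1.23, 0.963 and 2.36 CPM at day 5. The days overlapped, and the edgeR call (adjusted p = 0.0221, and 0.0756 without the 2 libraries that lack the 57 loci) was lost in 3 of the 8 cases with 1 library left out, with 0.0826 without replicate 3 of day 7.

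Guidance and trophic receptors rose as well. Of 53 axon guidance genes, 31 were higher and 2 lower in the authors' deposited table, with a median of 0.507, and 6 of the higher ones were at least 2-fold. The netrin receptors UNC5C and UNC5D rose by 1.31 and 1.50, and ROBO3, which controls midline crossing, by 1.19, in the authors' deposited table (with adjusted p = 1.34e-10, 1.64e-07 and 0.000591). The ligands NTN1 and SLIT2 were at 0.34 and 0.19 and did not pass in the authors' deposited table (with adjusted p = 0.342 and 0.233). Of 16 neurotrophin and GDNF family genes, 11 were higher and 1 lower in the authors' deposited table. NTRK2, the receptor of BDNF, rose by 1.88 and RET, the signalling receptor of the GDNF family, by 0.93, while the co-receptor GFRA2 fell by 0.66, in the authors' deposited table (with adjusted p = 6.37e-05, 0.000408 and 0.00103).

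Genes of the sensory ganglia and of glia were partly higher. Of 17 genes of sensory ganglia and neural crest glia, 9 were higher and 0 lower in the authors' deposited table. DRGX, a factor of nociceptive circuits, and RUNX3, of proprioceptive neurons, were higher by 1.36 and 1.70 in the authors' deposited table (with adjusted p = 5.49e-07 and 0.0221). RUNX3 did not pass by edgeR on the matrix (adjusted p = 0.0869). Of 12 astroglial and radial glial genes, 5 were higher and 1 lower, and of 10 oligodendrocyte lineage genes, 4 were higher and 0 lower, in the authors' deposited table. TNC, a matrix protein of radial glia and of tendon and cartilage, rose by 1.67, and CSPG4, or NG2, of oligodendrocyte precursors and pericytes, by 1.84, in the authors' deposited table (with adjusted p = 5.35e-17 and 1.46e-26). SOX8, of the oligodendrocyte and Schwann cell lineages, was higher by 1.38 in the authors' deposited table (with adjusted p = 8.31e-08). PDGFRA, the receptor that defines oligodendrocyte precursors and marks connective tissue too, was at 0.06 and did not pass in the authors' deposited table (with adjusted p = 0.818). The list of floor plate and roof plate genes had 2 of 11 higher and 0 lower in the authors' deposited table, where RSPO1, a secreted Wnt activator of the roof plate, rose by 1.34 (adjusted p = 4.66e-07).

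Markers of some tissues around the cord moved as well, and the part of these tissues in the neural changes was not tested. Of 30 genes of bone, tendon and connective tissue, 22 were higher and 2 lower at day 7 in the authors' deposited table, with a median of 0.827. TNMD, or tenomodulin, of tendon, rose by 3.37, ASPN, a small matrix proteoglycan, by 3.15, and RUNX2, the master factor of bone, by 2.84, in the authors' deposited table (with adjusted p = 4.07e-11, 3.27e-09 and 1.24e-05). Of 21 cartilage and sclerotome genes, 9 were higher and 0 lower in the authors' deposited table. ACAN, the main cartilage proteoglycan, rose by 2.61, and MATN1, a cartilage matrix protein, by 2.14, in the authors' deposited table (with adjusted p = 4.3e-12 and 4.01e-06). Of 34 skeletal muscle genes, 8 were higher (23.5%) and 9 lower (26.5%) in the authors' deposited table, near the background of 20.2% and 27.4%. MYOD1, the myogenic master factor, and SGCA, of the sarcoglycan complex, rose by 1.89 and 2.40, while the myosin heavy chain gene MYH15 and the muscle LIM protein gene CSRP3 fell by 1.04 and 2.71, in the authors' deposited table (with adjusted p = 2.61e-15, 4.8e-11, 8.51e-07 and 0.000416).

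Fewer members of the vessel, blood and skin lists passed. Of 26 endothelial and pericyte genes, 8 were higher (30.8%) and 2 lower (7.69%) in the authors' deposited table, and 16 did not pass. All genes with a symbol had 20.2% higher and 27.4% lower. The pericyte gene RGS5 rose by 4.48 there (adjusted p = 1.71e-07), far above the list median of 0.241. Of 10 erythroid genes, 1 was higher and 2 lower, with the embryonic globin HBZ at -0.69 in the authors' deposited table (with adjusted p = 0.00532). Of 30 macrophage and leukocyte genes, 0 were higher and 2 lower in the authors' deposited table, with a median of -0.305, and neither passed at an adjusted p under 0.01. The leukocyte surface phosphatase PTPRC was counted in every vehicle library, at 5.65, 5.65, 4.20 and 4.89 CPM at day 7, against 6.94, 6.91, 9.04 and 5.89 CPM at day 5 (edgeR adjusted p = 0.0462). Of 27 epidermal genes, 3 were higher and 2 lower in the authors' deposited table, where the epithelial adhesion molecule EPCAM fell by 0.83 and the basal integrin ITGB4 rose by 1.11 (adjusted p = 0.00317 and 5.68e-07).

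**Figure D4:**
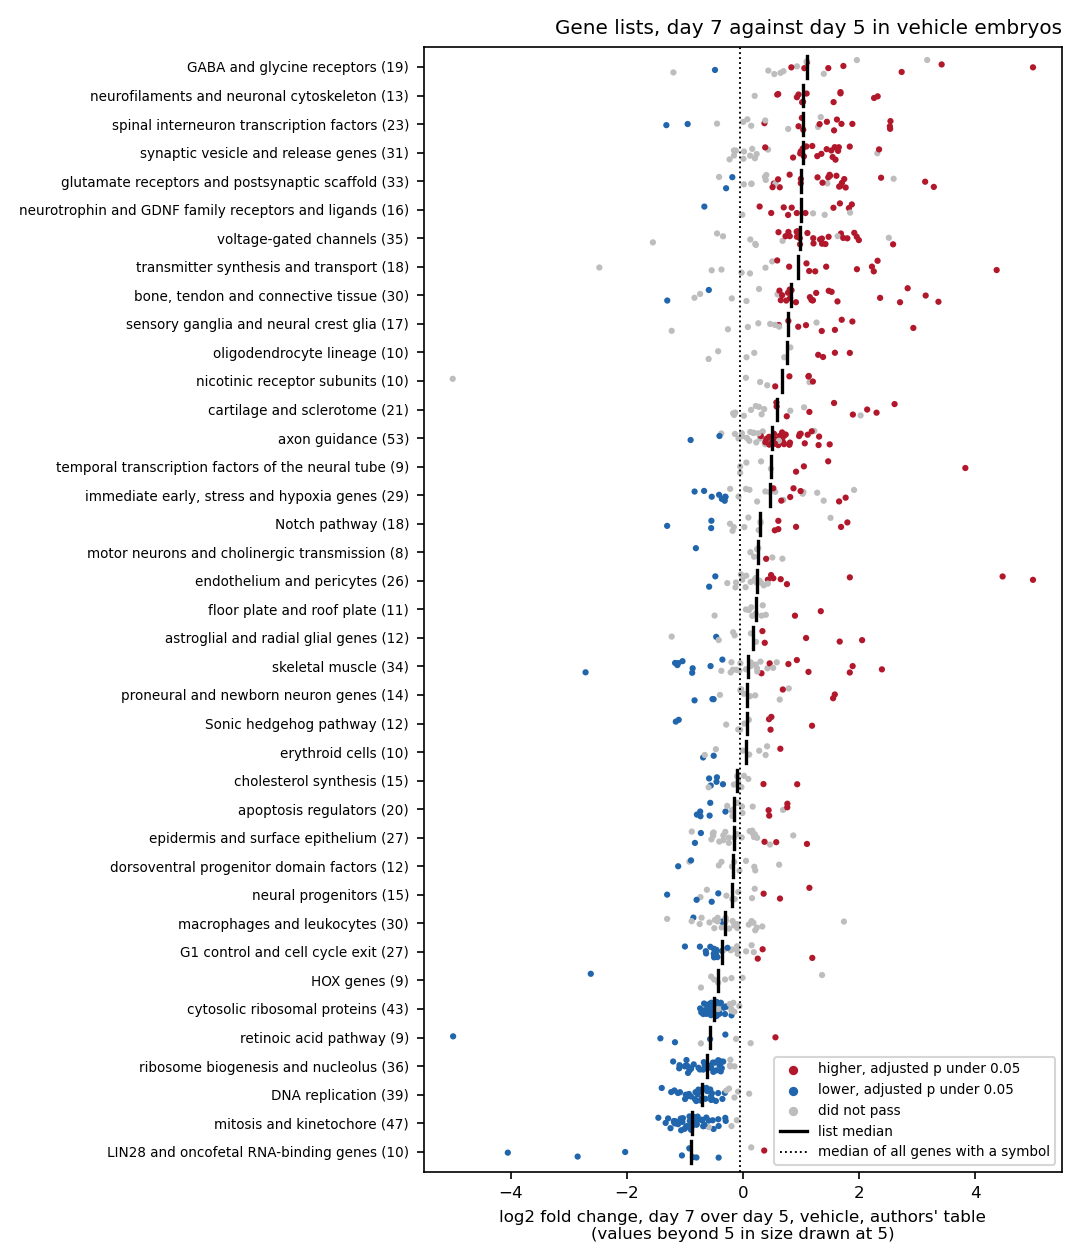
Each point is a gene of 1 of the 39 lists, with its log2 fold change, day 7 over day 5, in vehicle embryos from the authors' deposited table (red higher, blue lower, grey did not pass; number of genes in brackets). Black bars are list medians, from -0.891 for the LIN28 group to 1.1 for GABA and glycine receptors, and the dotted line is the median of all genes with a symbol, -0.054.

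Outside the lists, the named genes with the largest changes at an adjusted p under 1e-10 in the authors' deposited table included several neuronal genes on the higher side. GSC, or goosecoid, and SIM2, both developmental transcription factors, were higher by 5.42 and 3.80 in the authors' deposited table (with adjusted p = 1.22e-17 and 6.81e-12). CBLN2, a synapse organiser, rose by 3.30, SLITRK1, a synaptic adhesion protein, by 3.15, SEZ6, a regulator of dendrites, by 2.98, NCAN, a neural proteoglycan, by 2.80, and the neuropeptide gene CCK by 2.71, in the authors' deposited table. On the lower side, AGT, or angiotensinogen, fell by 3.51, IGDCC3, a relative of PRTG, by 2.14, and TCF15, a factor of the somites, by 2.09, in the authors' deposited table (with adjusted p = 7.76e-17, 1.53e-21 and 4.57e-13). CPZ, a carboxypeptidase that binds Wnt, and EXO1, a DNA repair exonuclease, fell by 1.69 and 1.42 in the authors' deposited table (with adjusted p = 2.99e-18 and 5.1e-25).

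Nicotine embryos, which share no library with the vehicle embryos, gave a measurement of the same days in other embryos. Both comparisons came from 1 edgeR fit of all 16 libraries and share its estimate of spread at each locus. The calls are therefore not fully separate, and how far this raises their overlap was not tested. At day 7, 2417 loci (13.1%) were higher and 3034 (16.5%) lower there by edgeR. Of the 6844 loci called in vehicle embryos, 3909 were called in the same direction in nicotine embryos, which is 57.1% of the vehicle calls and 71.7% of the 5451 nicotine calls. Calls in opposite directions were made at 8 loci (0.117%). Of the 28 loci of the matrix chosen above, 13 of the 15 higher ones, cut at the largest changes, were also called higher with nicotine by edgeR. LHX2, at a log2 fold change of 2.54 in vehicle embryos and 0.64 with nicotine, and FBXO41, at 2.46 in vehicle embryos and 1.50 with nicotine, were not (nicotine adjusted p = 0.453 and 0.0972, edgeR). The 13 lower ones were not cut by size and include small changes. Of these, PTPRQ, ESYT3, ART4, DTX3L and AMDHD1 were also called lower with nicotine by edgeR, and the other 8 were not. CD247 was at -2.06 in vehicle embryos and -0.60 with nicotine (nicotine adjusted p = 0.364, edgeR), and LCP2 and PTPRC had the opposite sign with nicotine, at 0.29 and 0.19. Of the loci that were higher at day 7 in vehicle embryos, 1681 (52%) were called higher with nicotine too, and of those that were lower, 2228 (61.7%) were called lower. When the difference between the courses was tested, edgeR called 0 of 18394 loci (0.0%, smallest adjusted p = 0.0956, 2521 at an unadjusted p under 0.05), and DESeq2 called 265. The authors' deposited table of that difference called 176 of 7489 genes with a symbol (2.35%).

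By list, the cell cycle genes and the synaptic genes had the same direction in both courses. Of all genes with a symbol, 20.2% were higher and 20.6% lower with nicotine in the authors' deposited table. In the authors' deposited tables, mitosis genes had 44 lower and 0 higher in vehicle embryos, and 42 lower and 0 higher with nicotine, with medians of -0.871 and -0.577. Synaptic vesicle genes had 19 higher in vehicle embryos and 20 with nicotine, and 0 lower in either, in the authors' deposited tables. Other lists differed more in their counts. Spinal interneuron factors had 13 higher and 2 lower in vehicle embryos, and 5 higher and 1 lower with nicotine, with medians of 1.04 and 0.44, in the authors' deposited tables. Epidermal genes had 3 higher and 2 lower in vehicle embryos, and 5 higher and 10 lower with nicotine, in the authors' deposited tables. No single member of these 2 lists had a called difference of the courses in the authors' deposited table. Skeletal muscle was the list with the most members whose course differed in the authors' deposited tables, 5 of 34, with 8 higher and 9 lower in vehicle embryos and 17 higher and 1 lower with nicotine. RYR3, a calcium release channel, was at -1.17 in vehicle embryos and 0.42 with nicotine, and MYH15 at -1.04 in vehicle embryos and 0.02 with nicotine (adjusted p of the difference = 0.00026 and 0.0205, from the authors' deposited table). Of 29 immediate early, stress and hypoxia genes, 7 were higher and 8 lower in vehicle embryos, against 3 higher and 8 lower with nicotine, in the authors' deposited tables. The transcription factor JUN was at 0.99 in vehicle embryos and 0.38 with nicotine, and the phosphatase DUSP1 at 0.82 and 0.10 (adjusted p of the difference = 0.0228 and 0.0218, from the authors' deposited table).

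**Figure D5:**
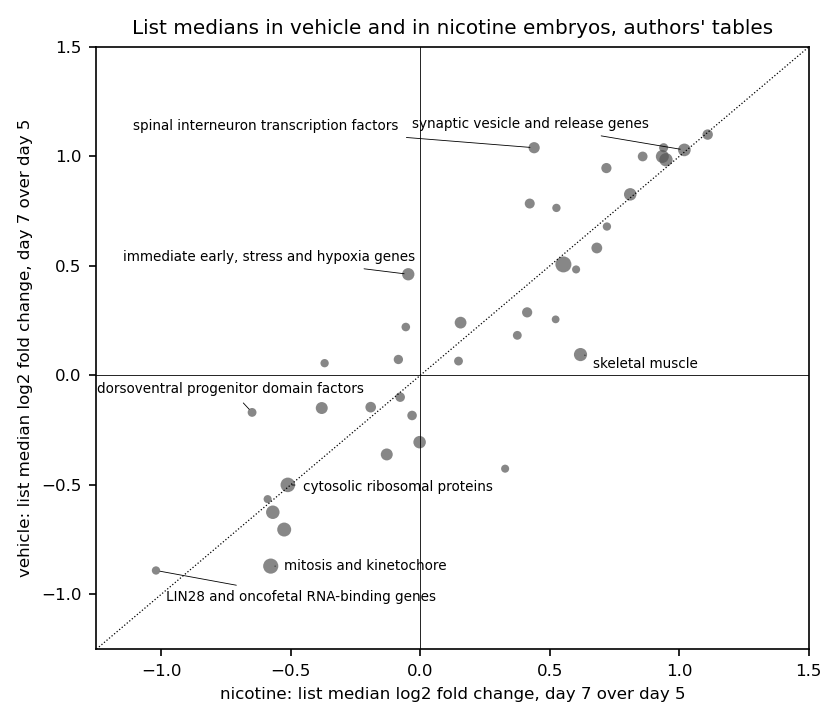
Each point is 1 of the 39 gene lists, with its median log2 fold change, day 7 over day 5, in vehicle embryos on the y axis and in nicotine embryos on the x axis, both from the authors' deposited tables, and point size grows with the number of genes. Synaptic vesicle genes (1.03 in vehicle and 1.02 with nicotine) are near the dotted line of equal values, and mitosis genes (-0.871 and -0.577) and skeletal muscle (0.0952 and 0.619) lie below it.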

How the data were processed

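The authors deposited whole-number read counts per locus, 1 column per library, without normalization. Their deposited comparison tables hold, per gene, a log2 fold change, its linear ratio, and p-values before and after adjustment. Per the submitters' processing notes, StringTie 1.3.3b, HISAT2 2.0.5, Bowtie2 2.3.2, Trim Galore 0.4.4, FastQC 0.11.5 and DESeq2 were used. The genome build, annotation, strandedness and model of the tables were not given in the sources used here. Only 0.334% of counts lie in loci with a gene identifier, so a named locus may hold part of its gene's reads. An adjusted p of exactly 1 in the tables was read as no adjusted value.

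Counts of all 16 libraries entered edgeR 4.0.16 in R 4.3.3 (filterByExpr, TMM, quasi-likelihood F-test of 4 group means, Benjamini-Hochberg adjusted p under 0.05). DESeq2 1.42.0 was an alternative. Counts of this comparison were also simulated with 18394 loci, of which 100 were changed 2-fold and 100 were changed 1.5-fold, all above a count minimum. There edgeR recovered 49% of 2-fold and 15% of 1.5-fold changes and called 4 others, and DESeq2 66%, 41% and 24 others. Far fewer loci were changed than the 6844 called in the data, which makes the adjusted p stricter. These rates are therefore not the power of the comparison itself.

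The 39 lists, the rules and the comparison were chosen with earlier results of these data known. Named genes were, per direction, up to 15 matrix loci and up to 15 table genes with the largest change, and per list up to 5 called members in each direction, those always named, and up to 3 that did not pass. The text gives a selection of these, and some genes are not reported here. Table genes with a log2 fold change beyond 10 were not named, but no such limit was put on the counts, medians and shares. No sequences were used. Differences between replicates exceeded sampling noise (chi-square per degree of freedom 19.9 to 57.7).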

Additional observations from a re-analysis of the deposited data

Results flagged for a closer look

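For normally spread values, chance sets 1 library apart in about 1 in 20 groups of 4 by the gap used here. CPM of low counts need not be spread so, and that rate may not hold for them. Of 116 groups of named loci, 12 were set apart, which can therefore not be weighed against that rate. The library stood above the others in 9 of them. At day 7 these were AMPD1 in replicate 3 (1.91 CPM, others 0.922 to 1.04), ALDH1A1 in replicate 1 (0.321 CPM, others 0), EPHA1 in replicate 2 (3.76 CPM, others 1.92 to 2.17), KCND3 in replicate 3 (5.84 CPM, others 3.72 to 3.79) and TRPA1 in replicate 1 (3.13 CPM, others 1.95 to 2.01). At day 5 these were PTPRQ in replicate 3 (29.9 CPM, others 3.82 to 6.59), ALDH1A1 in replicate 3 (8.85 CPM, others 0.0723 to 1.10), LCP2 in replicate 1 (3.00 CPM, others 2.78 to 2.80) and GRHL2 in replicate 1 (7.44 CPM, others 4.01 to 4.36). The library stood below the others for ICE2 at day 7 in replicate 2 (35.0 CPM, others 41.4 to 42.1), CACNA1E at day 7 in replicate 3 (21.1 CPM, others 28.9 to 29.6) and SLC6A11 at day 5 in replicate 2 (0.0723 CPM, others 0.609 to 0.717). PTPRQ and ALDH1A1 were both highest in replicate 3 of day 5.

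For 12 genes named under the rules, the change between the days differed between nicotine and vehicle embryos in the authors' deposited table, out of 374 such genes. Of these, 295 had an adjusted p of the difference there, so the 12 were 4.07% of them, against 176 of 7489 (2.35%) over all genes with a symbol. No test of that gap was made. The rules chose genes partly by their change in vehicle embryos, and that change also enters the difference. The choice can raise the share by itself, so the gap does not show that these genes differ more often. The difference, nicotine minus vehicle on the log2 scale, was positive for RYR3 (1.59), MYH15 (1.06), SEMA3C (0.925), KERA (0.834), STARD4 (0.712), SGCD (0.626), RARB (0.48) and ZNF521 (0.392) in the authors' deposited table. It was negative for DDIT4 (-1.38), DUSP1 (-0.712), JUN (-0.614) and IGF2BP2 (-0.379) in the authors' deposited table. The adjusted p of these differences ran from 0.00026 for RYR3 to 0.0449 for KERA and SGCD in the authors' deposited table.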

How the results depend on the processing

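The counts of 6844 changed, 3231 higher and 3613 lower loci stayed within 1.5 times under DESeq2, RLE normalization, both other filters on low counts, the 8 vehicle libraries alone and a covariate for the absent loci. With 1 vehicle library left out they ran from 5494 to 7013, from 2529 to 3328 and from 2965 to 3685, in each case lowest without replicate 3 and highest without replicate 2 of day 5. The balance of directions depended on the setting. With the 8 vehicle libraries alone, 3168 loci were higher and 3083 lower. These counts were 3421 and 3427 with RLE normalization, and 3689 and 3701 with DESeq2. The shares by level were taken at the main setting alone. At an adjusted p under 0.01, 2054 loci were higher and 2539 lower. With a 2-fold minimum, 1604 changed, 1280 higher and 324 lower. The vehicle calls with the same sign alone in nicotine embryos numbered 6402, and DESeq2 called 265 differences between the courses, 174 higher and 91 lower, where edgeR called 0. The cause of that gap was not tested. Calls summed over the lists, where a gene in more than 1 list counts again, numbered 503. They numbered 191 with a 2-fold minimum, which was chosen after seeing the data. Of 78 counts, for 39 lists and 2 directions, 17 moved by over 1.5 times at an adjusted p under 0.01 and 48 with the 2-fold minimum.

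Replicate numbers do not pair the embryos in the labels, and deviations of same-numbered libraries correlated at 0.0802, 0.355, 0.155 and 0.051, with replicate 4 of day 7 closest to replicate 3 of day 5. With a replicate block the count was 6190, with 3104 loci higher and 3086 lower. TRPA1, at 0.06 with no call by edgeR, changed sign in 3 of the 8 cases with a library left out, where it ran from -0.16 to 0.58. Of the 28 matrix loci chosen as described above, 19 kept their call under every alternative, and 49 of 448 values lost it. The deposited tables hold no values per library, so list counts could not be recomputed with libraries left out. Motif counts in promoters were not run. In simulation, where far fewer loci were changed than were called here, edgeR missed most 1.5-fold changes. How many it missed in the data is not known, so small changes at loci not called are not shown to be absent.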

Other observations

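Metabolic and survival genes formed smaller groups. Of 15 cholesterol synthesis genes, 2 were higher (13.3%) and 5 lower (33.3%) at day 7 in the authors' deposited table. SC5D, a late enzyme of the pathway, rose by 0.94, while the reductase DHCR7 and the dehydrogenase NSDHL fell by 0.55 and 0.58 in the authors' deposited table (with adjusted p = 1.46e-05, 0.000763 and 0.0001). Of 20 apoptosis regulators, 4 were higher and 6 lower in the authors' deposited table. The survival protein gene BCL2 rose by 0.77, and the caspase gene CASP6 fell by 0.79, in the authors' deposited table (with adjusted p = 1.18e-06 and 1.65e-06). The adaptor FADD and the BH3 protein gene BID fell by 0.73 and 0.57 in the authors' deposited table (with adjusted p = 1.35e-07 and 1.63e-09).

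A few loci were counted at 1 day and had 0 counts in all 4 libraries of the other. Among the 18394 tested loci, there were 11 with 10 or more counts in each day 7 library and 0 at day 5, and 4 of the reverse kind. IQCJ had 16, 15, 11 and 15 counts at day 7 and 0 at day 5, at least 4.37-fold higher at day 7 when 3 counts per library are taken as the floor. OR11A1, named as an olfactory receptor, had 0 counts at day 7 and 18, 45, 31 and 22 at day 5, at least 10.4-fold lower at day 7 by the same floor. In nicotine embryos, OR11A1 was at 0.219, 0.363, 0 and 0.594 CPM at day 7, against 0.779, 1.27, 0.805 and 1.44 CPM at day 5, and its fall did not pass by edgeR (adjusted p = 0.065). Of the 11 loci, 6 were also called higher with nicotine by edgeR, IQCJ among them (adjusted p = 0.0168), and of the 4, 1 was also called lower. A locus without a symbol, at 0 at day 7 in vehicle embryos, went the other way with nicotine (log2 fold change 1.70, edgeR adjusted p = 0.349). With nicotine it was at 3.35, 4.29, 3.76 and 3.14 CPM at day 7, against 0, 0, 4.54 and 0 CPM at day 5. Presence of such a locus can thus differ between embryos of the same day. All loci of both kinds were chosen after their values were seen. Olfactory receptor genes have close copies, so reads of OR11A1 may belong to another copy.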
